A study of Homo sapiens with 3 samples.

Results

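CALCB, CALCA and GAL, genes that encode precursors of neuropeptides, were followed in libraries of HEK293 cells, an adherent line derived from human embryonic kidney. The 3 genes, out of 26209 gene symbols with a value, were taken by symbol. They had been picked for their values in these same libraries: CALCB is high in the control and low in the edited clones, and GAL is listed at 0 in clone 174. Differences of these genes between the clones and the control are therefore given as a description, with no test.

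Messenger RNA was sequenced from clone 114 and clone 174, both labelled partial KANK1-KO, and from 1 library of control HEK293 cells labelled as untreated. The clones come from cells transfected with a plasmid that expresses Cas9 and a guide RNA placed just past the start codon of KANK1, which encodes a scaffold protein of the cell cortex. The series title asks whether a reduced KANK1 dose contributes to centrosome aberrations, and the peptide genes are outside that question. Each clone is represented by 1 library, so differences between clones and technical error cannot be told apart. The growth conditions given are the same for all cells, a medium with serum. How the clones were isolated and which alleles they carry is not stated in the labels. KANK1 itself was at 3.63 FPKM in clone 114 and 3.43 FPKM in clone 174, against 4.49 FPKM in the control. FPKM, fragments per kilobase of transcript and per unit of sequencing depth, was the deposited unit.

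CALCA and CALCB are neighbouring paralogs on chromosome 11. CALCA is spliced into calcitonin, a hormone of thyroid C cells, or into alpha-CGRP, and CALCB encodes beta-CGRP. CGRP is a vasodilator released from sensory nerve endings, and its receptor is the CALCRL protein joined to RAMP1. GAL encodes galanin, a peptide of many neurons and endocrine cells that acts on the receptors GALR1, GALR2 and GALR3. All of these peptides are cut from longer precursors at pairs of basic residues and are stored in dense-core granules.

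The stretches that encode the mature peptides are shown because reads of CALCB and CALCA have to be told apart in them. The CALCB stretch lies at chr11:15077305-15077415 on the plus strand in exon 4 of 5, the CALCA stretch at chr11:14967725-14967835 on the minus strand in exon 4 of 5, and the GAL stretch between 68685609 and 68688063 of chromosome 11 on the plus strand, spread over more than 1 exon. All are coding exons of GENCODE release 29 on GRCh38, and capitals mark the bases at which CALCB and CALCA differ.
CALCB: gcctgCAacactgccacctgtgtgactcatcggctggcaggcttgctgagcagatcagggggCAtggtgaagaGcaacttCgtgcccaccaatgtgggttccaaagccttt
CALCA: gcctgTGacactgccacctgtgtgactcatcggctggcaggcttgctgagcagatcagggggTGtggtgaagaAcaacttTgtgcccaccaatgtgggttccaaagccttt
GAL: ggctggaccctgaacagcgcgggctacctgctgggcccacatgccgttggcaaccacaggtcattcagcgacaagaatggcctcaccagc
The CGRP stretches hold 111 bases each and differ at 6 of them, which changes the amino acid at 3 of 37 codons. The galanin stretch holds 90 bases. The longest run that a CALCB transcript shares exactly with a CALCA transcript is 69 bases, and 43 of 3874 distinct runs of 50 bases in CALCB transcripts also occur in CALCA, against 0 of 3858 runs of 75 bases. The sources used here give neither read length nor the treatment of reads with several placements, so reads of one gene could be credited to the other. A long GENCODE transcript form of CALCB also overlaps CALCA on the opposite strand, and the sources used here do not say whether the counting used strand, although the library kit marks it.

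CALCB was the most abundant of the 3 genes in the control, was much lower in clone 114 and was almost undetected in clone 174. CALCB was at 40.8 FPKM in clone 114 and 0.0699 FPKM in clone 174, against 427 FPKM in the control. The order of the libraries was thus control, clone 114, clone 174, and the control lay above both clones, whose mean was 20.4 ± 28.8 FPKM (SD, n = 2). Clone 114 stood 10.5-fold below the control, with a 95% interval of 9.62 to 11.4. The ratio of control to clone 174 was 6103, with a 95% interval of 1140.1 to 251043 that is wide because the clone 174 value stands for about 1 fragment. These intervals are exact binomial intervals on estimated fragments and cover counting error only. In bulk RNA, fewer cells that express a gene and less RNA per cell cannot be told apart.

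**Figure D1:**
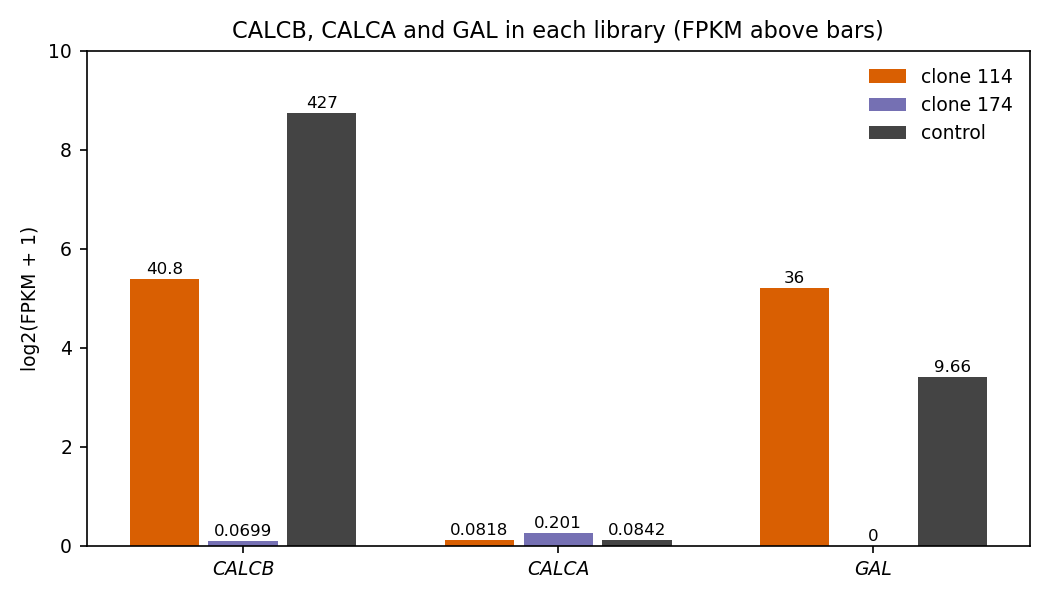
Bars give log2(FPKM + 1) of CALCB, CALCA and GAL in clone 114, clone 174 and the control, with the FPKM printed above each bar. CALCB is at 40.8, 0.0699 and 427 FPKM, CALCA stays under 0.25 FPKM in all libraries, and GAL is at 35.97, 0 and 9.66 FPKM.

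The place of CALCB among all genes shows the same levels. CALCB ranked 2154 from the top in clone 114 and 15719 in clone 174, against 161 in the control, among 26209 symbols. In the control it was therefore within the highest 0.614% of symbols, in clone 114 within the highest 8.22%. On the log2(FPKM + 1) scale the difference from the control was -3.35 in clone 114 and -8.64 in clone 174. Between the clones, CALCB was 584-fold lower in clone 174 than in clone 114, with a 95% counting interval of 109 to 24022. The authors' deposited table of log2 ratios without a pseudocount gave CALCB as -3.39 for clone 114 and -12.58 for clone 174.

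CALCA, the paralog next to CALCB, was near the limit of detection in every library. CALCA was at 0.0818 FPKM in clone 114 and 0.201 FPKM in clone 174, against 0.0842 FPKM in the control. Each value lies below the 0.245 to 0.481 FPKM that 3 fragments give over the RefSeq-linked CALCA transcripts of 581 to 916 bases, so no ratio is given and a difference was not detectable at this depth. Calcitonin and alpha-CGRP forms were not separated in the deposited values. In the control CALCA ranked 15294 from the top, against 161 for CALCB.

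The listed GAL values lay above the control in clone 114 and below it in clone 174. GAL was at 35.97 FPKM in clone 114 and was listed at 0 in clone 174, against 9.66 FPKM in the control. Clone 114 was the highest library and clone 174 the lowest, so the control lay between the clones. The GAL value of clone 114 was 3.73-fold above the control, with a 95% counting interval of 2.97 to 4.69. On the log2(FPKM + 1) scale the difference was 1.79 in clone 114 and -3.41 in clone 174. The mean of the clones was 17.99 ± 25.4 FPKM (SD, n = 2), with an SD above the mean. GAL ranked 2463 from the top in clone 114 and 7016 in the control.

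A value of exactly 0 in these tables can be a failed estimate. H3F3A, a histone gene that all cells use, was at 24.1 FPKM in clone 114 and was listed at 0 in clone 174 and in the control. Besides GAL it was the 1 gene, small RNAs left out, at 20 FPKM or more in one library and at 0 in another. For that reason no linear ratio is given for GAL in clone 174, and its log2(FPKM + 1) differences and counts past a fold there take the listed 0 as it stands. With no failed estimate, 3 fragments would have given GAL 0.283 FPKM in that library. Among 9189 genes with at least 5 FPKM in the control, 14 were listed at 0 in clone 174. Of these 14, 9 were small nucleolar or other small RNAs, and the other 5 were CDO1, FUOM, GAL, RAMP1 and RIBC2. The levels of 5 and 20 FPKM and these names were chosen after the values were seen. RAMP1, the partner of CALCRL in the CGRP receptor, was thus listed at 0 in the same library as GAL.

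The fragments behind these values were estimated from the deposited FPKM. Multiplied by the effective transcript length, the values of lowly expressed genes gathered at whole multiples of 1 step, which was 0.059 FPKM kilobases in clone 114 and 0.0584 in clone 174, against 0.0611 in the control. Of the low genes, 76.9% in clone 114, 77.8% in clone 174 and 77.6% in the control lay within 0.15 fragments of a whole number of at least 1. The step was chosen as the best fit to these same genes, so these shares describe the fit and do not check it. The steps correspond to about 16900000 fragments in clone 114 and 17100000 in clone 174, against 16400000 in the control, assuming fragments of 200 bases. CALCB then stood for about 601 fragments in clone 114 and 1.04 in clone 174, against 6074 in the control, over its RefSeq-linked transcript of 1070 bases. GAL stood for about 377 fragments in clone 114 and 0 in clone 174, against 97.7 in the control. CALCA stood for 0.528 to 0.992 fragments in clone 114, 1.31 to 2.46 in clone 174 and 0.525 to 0.987 in the control, depending on the transcript.

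**Figure D2:**
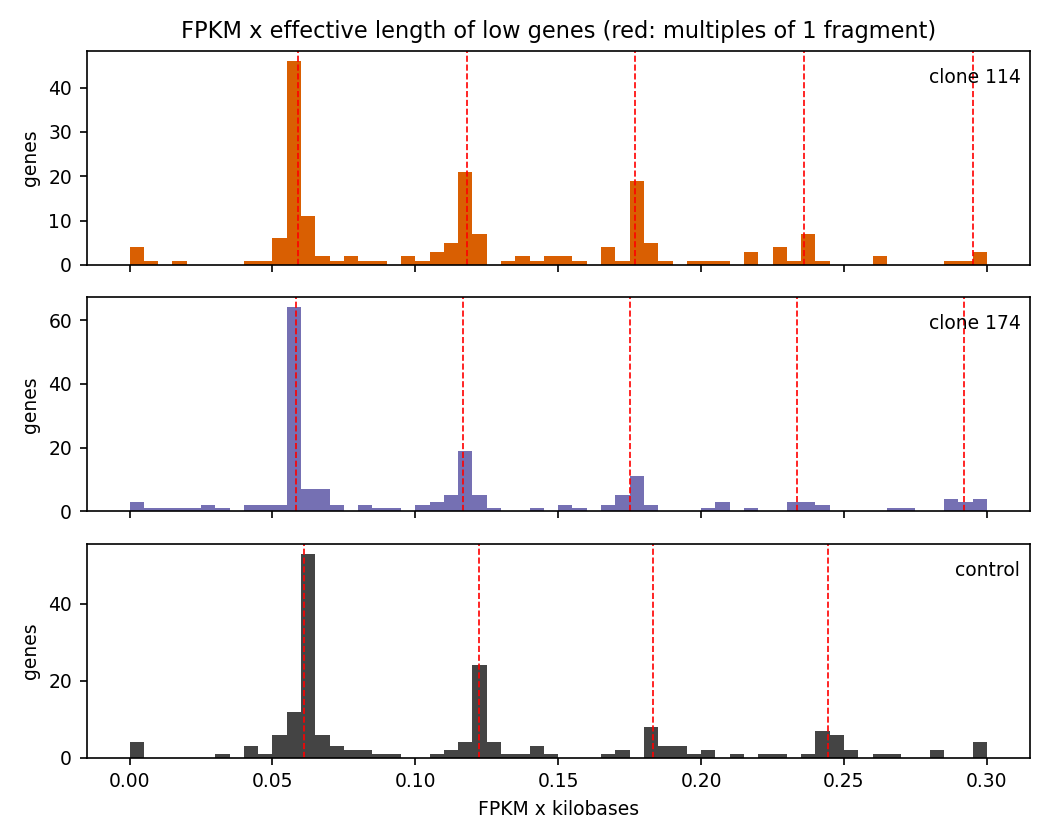
Histograms of FPKM multiplied by effective length in kilobases, for lowly expressed genes with 1 annotated transcript, in clone 114, clone 174 and the control. Red lines mark whole multiples of the step of 1 fragment (0.059, 0.0584 and 0.0611), and the peaks stand at those multiples. The step was fitted to these same genes.

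How often differences of this size occurred among all genes is given for reading the values, not as support, because the genes were picked on this contrast. Of the 12577 genes averaging 1 FPKM or more, 10 were at least 8-fold lower in clone 114 than in the control on the log2(FPKM + 1) scale (0.0795%), and 21 in clone 174 (0.167%). CALCB was in both sets, and 6 genes in all (0.0477%) were. The other 5 were SCARNA22, SNORA40, SNORA61, SNORA71C and SNORD97, small nucleolar or Cajal body RNAs listed at 0 in both clones. Such zeros of small RNAs occurred in both directions and can be failed estimates. Of small RNAs at 5 FPKM or more in the control, 9 were listed at 0 in clone 114 and 9 in clone 174. Of those at 5 FPKM or more in clone 114, 6 were listed at 0 in the control, and 6 of those in clone 174. At least 8-fold higher were 9 genes in clone 114 (0.0716%) and 14 in clone 174 (0.111%). At least 2-fold higher than the control were 225 genes in clone 114 (1.79%) and 243 in clone 174 (1.93%), and at least 2-fold lower were 171 in clone 114 (1.36%) and 204 in clone 174 (1.62%). GAL is among the 225 genes of clone 114. At least 2-fold higher in clone 114 and at least 8-fold lower in clone 174 were 2 genes, GAL and COL2A1 (0.0159%). Between the clones, 32 genes were at least 8-fold lower in clone 174 than in clone 114 (0.254%), CALCB and GAL among them, and 23 were at least 8-fold higher (0.183%). At least 2-fold lower in clone 174 than in clone 114 were 447 genes (3.55%), and at least 2-fold higher 279 (2.22%). CALCA has a mean below 1 FPKM and is in none of these counts. CALCB and GAL passed the filter of 1 FPKM on mean level through the libraries in which they are high.

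Other genes with a like pattern were sought by the distance between their 2 differences from the control and those of CALCB or GAL, over 3 libraries. The nearest to CALCB were SCARNA22 at a distance of 3.97 log2 units, SNORA40 at 4.08, SNORA61 at 4.25, EGR1 at 4.59 and SNORA71C at 4.77. These distances are large, but on this scale a gene cannot fall by more than its own control level. CALCB ranked 161 from the top in the control, so most genes could not come near it whatever their change. The small RNAs among the nearest were listed at 0 in both clones, values that can be failed estimates. EGR1, an immediate early transcription factor gene, was at 13.6 FPKM in clone 114 and 4.33 FPKM in clone 174, against 90.6 FPKM in the control. GAL had nearer companions. MAP7D2, which encodes a microtubule-associated protein, was at 21.3 FPKM in clone 114 and 0.149 FPKM in clone 174, against 5.86 FPKM in the control. COL2A1, the cartilage collagen gene, was at 93.6 FPKM in clone 114 and 0.0504 FPKM in clone 174, against 16.8 FPKM in the control. WFDC2, MFAP2 and FAM213A followed at distances of 1.00, 1.02 and 1.14, after 0.842 for MAP7D2 and 0.909 for COL2A1. In all of these 5 genes clone 114 was the highest library and clone 174 the lowest, as for GAL. That order follows from choosing them by their distance to GAL. Both differences share the control library, so they are not independent.

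**Figure D3:**
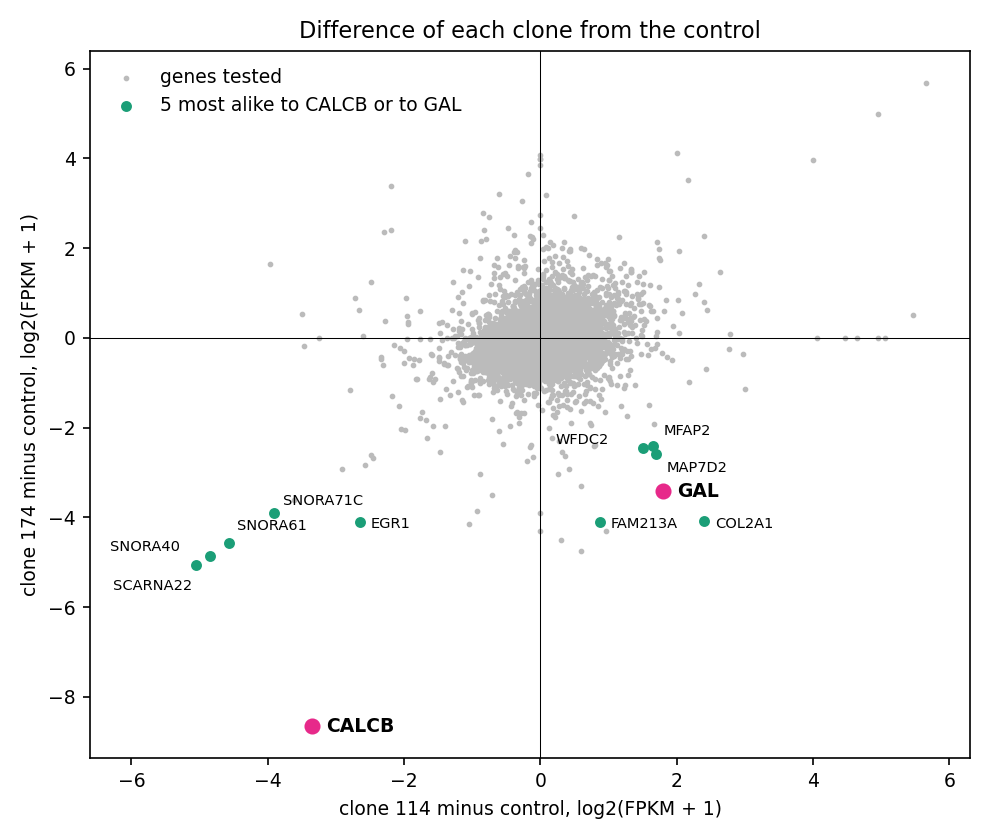
Each point is 1 of 12577 genes, with the difference of clone 114 from the control on the x axis and that of clone 174 on the y axis, both as log2(FPKM + 1). CALCB lies at -3.35 and -8.64, a place that only genes with a high control level can reach. GAL lies at 1.79 and -3.41, and the green points are the 5 genes most like each.

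The 4 nearest protein-coding genes on each side of CALCB and of GAL on chromosome 11 differed from the control by -0.67 to 0.63 on the log2(FPKM + 1) scale, a scale that understates changes of low genes such as INSC. CYP2R1, a vitamin D hydroxylase gene on the far side of CALCA, was at 7.14 FPKM in clone 114 and 5.69 FPKM in clone 174, against 4.51 FPKM in the control. PDE3B, a phosphodiesterase gene, was at 9.40 FPKM in clone 114 and 4.92 FPKM in clone 174, against 8.43 FPKM in the control. INSC, the first protein-coding gene beyond CALCB and a gene of spindle orientation, followed the order of CALCB at a low level. INSC was at 0.0473 FPKM in clone 114 and listed at 0 in clone 174, against 0.405 FPKM in the control. That INSC value stands for about 1.104 to 2.21 fragments in clone 114, against 9.13 to 18.3 in the control, and INSC was below the level tested. Further out, SOX6 was at 0.646 FPKM in clone 114 and 0.334 FPKM in clone 174, against 0.606 FPKM in the control.

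Beside GAL, PPP6R3, a phosphatase regulatory subunit gene, was at 32.9 FPKM in clone 114 and 41.5 FPKM in clone 174, against 31.8 FPKM in the control. TESMIN, on the other side of GAL and listed under an older symbol, was at 2.33 FPKM in clone 114 and 1.51 FPKM in clone 174, against 1.47 FPKM in the control. CPT1A, the gene of the enzyme that passes fatty acids to mitochondria, was at 21.6 FPKM in clone 114 and 17.7 FPKM in clone 174, against 17.6 FPKM in the control. The other GAL neighbours in the annotation order lay between -0.54 for MRPL21 in clone 114 and 0.63 for KMT5B in clone 174. None of the 4 neighbours on either side of GAL was listed at 0 in clone 174.

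**Figure D4:**
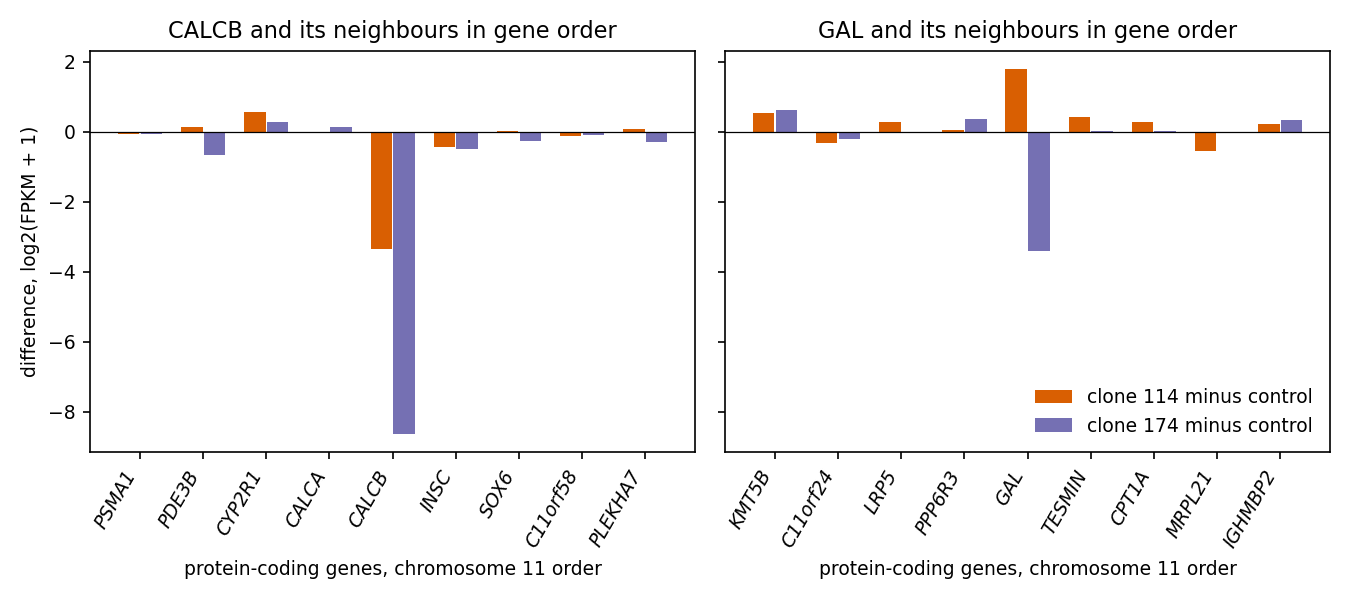
Bars give the difference of clone 114 and of clone 174 from the control, as log2(FPKM + 1), for CALCB (left) and GAL (right) with the 4 nearest protein-coding genes on each side in RefSeq order. CALCB at -3.35 and -8.64 and GAL at 1.79 and -3.41 stand apart from neighbours between -0.67 and 0.63.

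Genes of the receptors, the processing machinery and other peptides were compared with the limma test over all 12577 genes, in which 10 passed an adjusted p of 0.05 (0.0795%), 4 of them higher (0.0318%) and 6 lower (0.0477%), and 218 had an unadjusted p under 0.05. Of 152 genes matched in 7 lists, 61 had a mean of at least 1 FPKM and were tested. By limma 0 of the 61 passed in either direction, and 1, RAMP1, had an unadjusted p under 0.05. The fit had 1 residual degree of freedom, from the difference between the clones. The values of the list genes are therefore given mainly as levels. For reading the direction counts of the lists below, 3278 of the 12577 genes tested were higher in both clones and 3998 lower in both.

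On the receptor side, RAMP1 was at 5.99 FPKM in clone 114 and listed at 0 in clone 174, against 10.4 FPKM in the control (log2 change -2.11, SE 0.88, limma adjusted p = 1.00). The control and clone 114 values of RAMP1 stand for about 90.9 to 121 and 54.3 to 72.1 fragments. The log2 change of RAMP1 was -0.71 without clone 174 and -3.51 without clone 114. It takes the listed 0 as it stands, which can be a failed estimate. RAMP2, which makes CALCRL an adrenomedullin receptor, was at 7.46 FPKM in clone 114 and 5.21 FPKM in clone 174, against 3.28 FPKM in the control. CRCP, which encodes a protein that couples the CGRP receptor to signalling and is also an RNA polymerase III subunit, was at 25.3 FPKM in clone 114 and 17.3 FPKM in clone 174, against 16.3 FPKM in the control. CALCRL, the receptor chain itself, was at 0.0310 FPKM in clone 114 and 0.234 FPKM in clone 174, against 0.196 FPKM in the control. CALCR, the calcitonin receptor gene, was at or below 0.194 FPKM in all libraries, and RAMP3 was listed at 0 in all. Of the 6 receptor genes 3 were tested, with a median log2 change of 0.34, against -0.02 over all genes tested. That median was 0.08 without clone 114, 0.60 without clone 174 and -0.0087 with no filter on low values.

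The galanin receptors were low in every library, and 0 of 5 genes of the galanin list reached 1 FPKM. GALR2 was the highest of the receptor genes, at 0.408 FPKM in clone 114 and 0.454 FPKM in clone 174, against 0.210 FPKM in the control. GALR1 was at 0.138 FPKM in clone 114 and 0.159 FPKM in clone 174, against 0.142 FPKM in the control. GALP, the gene of galanin-like peptide, was listed at 0 in all libraries.

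Of 32 genes of peptide processing and granules, 16 reached 1 FPKM in clone 114 and 19 in clone 174, against 16 in the control. Of the 17 tested, 3 were higher in both clones, 7 lower in both and 7 opposite, with a median log2 change of -0.05, which was -0.11 without clone 114, 0.08 with equal sums and 0.02 with no filter on low values. CPE, the carboxypeptidase that trims basic residues, was the highest of those named, at 106 FPKM in clone 114 and 86.3 FPKM in clone 174, against 115 FPKM in the control. PAM, which amidates CGRP and many other peptides, was at 23.6 FPKM in clone 114 and 21.5 FPKM in clone 174, against 24.8 FPKM in the control. PCSK1N, the gene of an inhibitor of the convertase PCSK1, was at 16.0 FPKM in clone 114 and 9.09 FPKM in clone 174, against 22.8 FPKM in the control. PCSK1, a convertase of the regulated pathway, was at or below 0.319 FPKM in all libraries. PCSK2, the other such convertase, was at 0.0400 FPKM in clone 114 and 4.003 FPKM in clone 174, against 0.416 FPKM in the control. Clone 174, where CALCB and GAL were lowest, thus had the highest PCSK2 value, about 142 to 311 fragments. FURIN, a convertase of the constitutive pathway, was at 33.4 FPKM in clone 114 and 40.8 FPKM in clone 174, against 44.0 FPKM in the control. The granule genes CHGA, CHGB and SCG2 stayed under 1 FPKM in all libraries. RAB3A, a GTPase gene of regulated exocytosis, was at 3.87 FPKM in clone 114 and 3.73 FPKM in clone 174, against 6.93 FPKM in the control.

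Of 7 tested genes of peptide breakdown, 2 were higher in both clones, 2 lower and 3 opposite, with a median log2 change of 0.03, which was -0.06 without clone 174, -0.03 at a higher filter of 5 FPKM and 0.17 with equal sums. ECE1, an endothelin-converting metalloprotease gene, was at 24.4 FPKM in clone 114 and 20.1 FPKM in clone 174, against 21.7 FPKM in the control. IDE, the insulin-degrading enzyme gene, was at 15.4 FPKM in clone 114 and 13.0 FPKM in clone 174, against 12.4 FPKM in the control.

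Transcription factor genes linked to these peptides in neurons and endocrine cells were measured next. Of 26 tested, 7 were higher in both clones, 10 lower and 9 opposite, with a median log2 change of -0.06, which was -0.03 without clone 174 and 0.06 with equal sums. USF1 and USF2 encode factors known to act on the CALCA enhancer. USF1 was at 21.8 FPKM in clone 114 and 23.2 FPKM in clone 174, against 20.7 FPKM in the control. USF2 was at 51.8 FPKM in clone 114 and 60.8 FPKM in clone 174, against 74.9 FPKM in the control. REST, a repressor of neuronal genes, was at 7.67 FPKM in clone 114 and 6.51 FPKM in clone 174, against 6.84 FPKM in the control. CREB1, the factor of the cyclic AMP response, was at 5.09 FPKM in clone 114 and 6.13 FPKM in clone 174, against 4.50 FPKM in the control. ISL1, a sensory and endocrine lineage factor, was at 0.0473 FPKM in clone 114 and 2.43 FPKM in clone 174, against 4.21 FPKM in the control (limma adjusted p = 1.00). POU4F1, another sensory neuron factor, was at 7.33 FPKM in clone 114 and 7.90 FPKM in clone 174, against 8.47 FPKM in the control. ISL1 was thus lowest in clone 114, whereas CALCB was lowest in clone 174.

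Against other peptide precursors, CALCB was the leading transcript of the control. Over 72 precursor genes, CALCB, CALCA and GAL included, the summed level was 177 FPKM in clone 114 and 92.3 FPKM in clone 174, against 537 FPKM in the control. CALCB made up 23.0% of this sum in clone 114 and 0.0757% in clone 174, against 79.4% in the control. GAL made up 20.3% in clone 114, was listed at 0 in clone 174 and made up 1.80% in the control. By level, CALCB ranked 2 among the precursors in clone 114 and 32 in clone 174, against 1 in the control. GAL ranked 3 in clone 114 and 5 in the control. Apart from CALCB and GAL, the summed level over the 64 genes of the list of other neuropeptides was 93.9 FPKM in clone 114 and 84.6 FPKM in clone 174, against 93.2 FPKM in the control.

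Of those 64 other precursor genes, 9 reached 1 FPKM in any library and 21 were listed at 0 in all. NUCB2, the precursor gene of nesfatin, was at 44.1 FPKM in clone 114 and 26.4 FPKM in clone 174, against 39.1 FPKM in the control. NMU, the neuromedin U gene, was at 13.8 FPKM in clone 114 and 20.04 FPKM in clone 174, against 24.1 FPKM in the control. NMB, the neuromedin B gene, was at 16.2 FPKM in clone 114 and 20.3 FPKM in clone 174, against 15.8 FPKM in the control. NTS, the neurotensin gene, was higher in both clones, at 4.31 FPKM in clone 114 and 4.82 FPKM in clone 174, against 2.104 FPKM in the control. NPY, the neuropeptide Y gene, had the same order of libraries as GAL, at 4.77 FPKM in clone 114 and 1.26 FPKM in clone 174, against 1.81 FPKM in the control. NPPC, the C-type natriuretic peptide gene, was at 2.66 FPKM in clone 114 and 2.29 FPKM in clone 174, against 3.58 FPKM in the control. The rest, PTHLH, TAC1 and TAC3, stayed at or below 2.25 FPKM. In the calcitonin family, ADM, the adrenomedullin gene, was at 6.01 FPKM in clone 114 and 6.73 FPKM in clone 174, against 7.19 FPKM in the control, ADM2 stayed below 1 FPKM and IAPP was listed at 0 in all libraries. Of the 7 tested genes of the other precursors, 3 were higher in both clones, 2 lower and 2 opposite, with a median log2 change of 0.19. That median was -0.25 without clone 114, 0.05 without clone 174 and -0.19 at a higher filter of 5 FPKM.

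**Figure D5:**
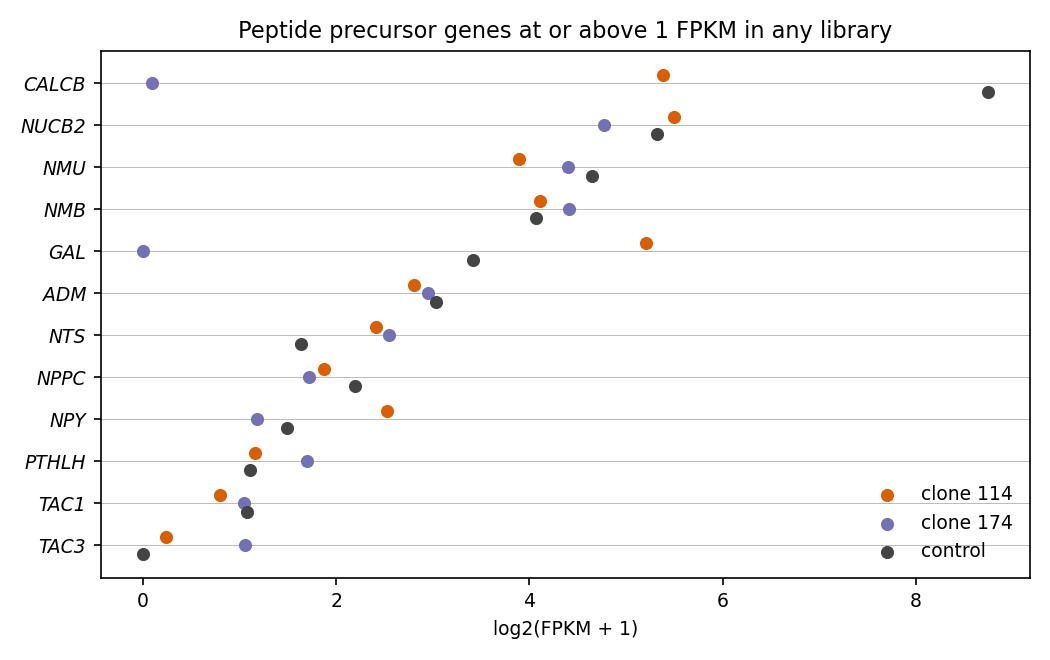
Points give log2(FPKM + 1) in clone 114, clone 174 and the control for the 12 peptide precursor genes at or above 1 FPKM in any library, ordered by mean FPKM. CALCB and GAL spread over the axis, with clone 174 at or next to 0 for both, while NUCB2, NMU, NMB and ADM lie close together.

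The labelled cell type was checked against markers. Of 11 genes of HEK293 and embryonic kidney, 10 reached 1 FPKM in any library, among them VIM at 445 FPKM in clone 114 and 201 FPKM in clone 174, against 523 FPKM in the control. PAX2, a kidney lineage factor, was lower, at 0.298 FPKM in clone 114 and 1.33 FPKM in clone 174, against 0.368 FPKM in the control. It thus reached 1 FPKM in clone 174 only. PAX8 was the gene of this list that did not reach 1 FPKM, at or below 0.0684 FPKM in all libraries. Markers of leukocytes summed to at most 0.456 FPKM and markers of endothelium to at most 0.420 FPKM in any library. PTPRC and CD3E were listed at 0 in all. The 5 fibroblast markers summed to 3.551 FPKM in clone 114 and 5.596 FPKM in clone 174, against 3.198 FPKM in the control. Of these markers, 2 of 5 reached 1 FPKM in any library. The 7 neuronal genes known in HEK293 summed to 84.47 FPKM in clone 114 and 124.6 FPKM in clone 174, against 134.3 FPKM in the control. Of these genes, 5 of 7 reached 1 FPKM in any library. Sensory neurons are among the cells that normally make CGRP. Their 9 markers summed to 13.9 FPKM in clone 114 and 18.3 FPKM in clone 174, against 18.8 FPKM in the control. Of these, 6 of 9 reached 1 FPKM in any library, namely SCN9A, TRPV1, PRPH, ISL1, POU4F1 and TAC1. The nociceptor gene SCN9A was at 2.16 FPKM in clone 114 and 2.53 FPKM in clone 174, against 2.37 FPKM in the control. TRPV1, another, was at 2.79 FPKM in clone 114 and 2.14 FPKM in clone 174, against 1.63 FPKM in the control. The nociceptor genes SCN10A and P2RX3 were listed at 0 in all. The 8 markers of thyroid C cells and neuroendocrine cells summed to 6.76 FPKM in clone 114 and 14.8 FPKM in clone 174, against 8.14 FPKM in the control. Of these, 2 of 8 reached 1 FPKM, SYP and INSM1, and CEACAM5 was listed at 0 in all. SYP was at 2.58 FPKM in clone 114 and 10.2 FPKM in clone 174, against 4.69 FPKM in the control. INSM1 was at 2.83 FPKM in clone 114 and 2.15 FPKM in clone 174, against 2.66 FPKM in the control. The 6 chromaffin and sympathetic markers summed to 10.99 FPKM in clone 114 and 8.02 FPKM in clone 174, against 8.67 FPKM in the control. Of these, 2 of 6 reached 1 FPKM, HAND2 and GATA3, and 4 were listed at 0 in all. The part of such cells in the CALCB and GAL values was not tested.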

How the data were processed

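Messenger RNA of 3 HEK293 libraries was sequenced, 2 partial KANK1-KO clones and 1 control. Per the submitters' processing notes, cutadapt 2.10, HISAT2 2.2.1 and Cuffdiff 2.2.1 were used with the build hg19; the sources do not state settings, annotation or read counts. Stranded mRNA libraries were built, per the labels' protocols. The FPKM values the authors deposited are per gene symbol and library (26237 rows, of which 28 with dates in place of symbols were left out). Other deposited tables hold log2 ratios of clone to control. The 12577 genes averaging 1 FPKM or more entered a limma 3.58.1 fit (R 4.3.3) of log2(FPKM + 1), with trended eBayes moderation and p-values adjusted by Benjamini-Hochberg, called at 0.05. Adding 1 FPKM makes fold changes of low genes too small. The fit was tested on simulated data, where it recovered the directions of the changed genes. More of its calls there were false than the level of 0.05 allows, so its calls here may be lenient too. The simulated spread depended on expression level only, unlike that of real genes, so how lenient they are was not settled. Clones stand for 2 replicates, and nothing says that they are separate cultures beyond being clones, so p-values reflect only how these libraries spread, which may be technical.

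Depth was estimated from genes with 1 GENCODE transcript of 1000 to 6000 bases, assuming fragments of 200 bases. In genes of at most 0.3 FPKM, the value of 1 fragment relative to the control was 0.972 in clone 114 and 0.960 in clone 174, without any transcript length. Intervals are Clopper-Pearson intervals on rounded fragments, at 95%. Coding stretches and coordinates are from GENCODE release 29 on GRCh38, and gene order and older symbols from RefSeq on GRCh38.p14; no coordinates of hg19 were used. The CALCP symbol of the calcitonin list had no match in the tables.

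The members, the gene lists and the tests were chosen with earlier results of these data known. The members and the 5 most alike genes were named. List genes at 1 FPKM or more in any library and the 4 nearest neighbours on each side could be named. Only some of these were, so the named genes are a selection. Values of QPCT, THOP1 and PSMA1, for example, are not given in the text. Genes at lower levels, the genes listed at 0 in clone 174 and the genes past 8-fold were named after their values were seen. Alternatives were another pseudocount, scaling to equal sums, quantile normalization, other filters and leaving out each clone.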

Additional observations from a re-analysis of the deposited data

Results flagged for a closer look

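The listed values of GAL lay on opposite sides of the control in the clones. Its log2(FPKM + 1) difference from the control was 1.79 in clone 114 and -3.41 in clone 174, where it was listed at 0, a value that can be a failed estimate in these tables. Both differences share the control library. The difference between the clones was not tested: each is 1 library, and GAL was picked for its value in clone 174.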

How the results depend on the processing

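CALCB was lower than the control in both clones under every alternative run, and GAL higher in clone 114 and lower in clone 174. Another pseudocount cannot turn these signs, and the filters leave the values as they are. Scaling to equal sums could not turn them either. The summed levels, 462950 FPKM in clone 114 and 492750 FPKM in clone 174, against 530251 FPKM in the control, differ too little for that. After quantile normalization the sign follows the rank of the gene in each library, so it was also fixed beforehand. The unchanged signs are therefore a description and no added support. The mean log2 change of CALCB was -6.00 and ranged from -8.64 to -3.35 when either clone was left out. That of GAL was -0.81, with a range from -3.41 to 1.79, so its sign depends on the clone. That of CALCA was 0.07, with a range from -0.0033 to 0.15, and 0.34 with a pseudocount of 0.1 FPKM. Scaling to equal sums shifted the median of all genes by 0.13 and turned the change of PAM to 0.011. The limma test called 10 genes, against 3 with a pseudocount of 0.1 FPKM, 6 with equal sums, 6 after quantile normalization, 0 without a filter on low values (where 486 genes had an unadjusted limma p under 0.05) and 15 among genes averaging 5 FPKM or more. The cause was not tested. Among 61 tested list genes, none called, 14 had another sign under another pseudocount, scaling or filter, and 21 had opposite signs in the clones, so that theirs turns when 1 clone is left out. Medians of the lists moved beyond the spread between the clones in 10 of 42 values. Leaving out a clone leaves no residual degree of freedom, so it gives values without a test. No paired analysis was possible because the groups share fewer than 2 replicate numbers. Depth limits CALCA in all libraries and CALCB in clone 174, at about 1 or 2 fragments.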
